A study of Rattus norvegicus with 12 samples.

Results

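The interferon-stimulated effector genes are the working end of the antiviral response, the enzymes, modifiers and membrane proteins that interferon signaling switches on. A list of 60 such genes was chosen by symbol with no value in the rule, although earlier results of these data were known, and 51 of them had a row among the 12271 genes of the normalized expression table. All 51 passed the filter on low values (a mean of 10 normalized counts over the 12 libraries), Plac8 only through its double knockdown libraries. The other 9 (Ifit1, Ifi44l, Herc6, Parp10, Rnf213, Xaf1, Pml, Ddx60 and Samd9) were not analysed here.

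RNA was sequenced from cardiac fibroblasts cultured from the heart ventricles of Sprague Dawley rats at postnatal day 2. Cells received negative siRNA, Yap siRNA, Wwtr1 siRNA or Yap and Wwtr1 siRNA together (double knockdown), with 3 libraries per group and 12 in all. Per the labels, each target was met with 2 different siRNAs at 25 nM each, and cells were collected after 48 hours, whereas the study's methods give that time from a change of medium on the day after transfection. An siRNA is a short double-stranded RNA that directs the breakdown of transcripts with its sequence. Yap, whose gene symbol is Yap1, and Wwtr1, known too as Taz, are paralogous coactivators of transcription at the end of the Hippo pathway. The siRNA label of the double knockdown names only the Wwtr1 siRNAs, and the design text of the series speaks of myocytes where its title and labels speak of fibroblasts. Neither the labels nor the study's methods used here say whether the total amount of siRNA was equal across groups. The amount of siRNA and the number of genes targeted therefore cannot be told apart in the double knockdown, nor can loss of a target and the siRNA pair used against it in any group. Replicates came from separate litters of pooled pups per the study.

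Type I interferons bind a receptor that activates the kinases Jak1 and Tyk2. Their signal reaches the nucleus through a complex of transcription factors that includes Irf9 and binds the interferon-stimulated response element in the promoters of target genes. Fibroblasts are among the cells that both make type I interferon and respond to it, and most of these genes have a low basal level that rises sharply with interferon. Gamma interferon works through a different element, the gamma-activated site.

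Promoter sequences from RefSeq (build GRCr8, 250 bases before to 50 bases after each start site) were given for 44 of the 51 members. None was given for Isg15, Ifit2, Ifitm1, Rtp4, Trim14, Usp18 and Adar. The core of the response element was searched as a GAAA run, 2 bases of any kind and another GAAA run, on both strands. It was found in 26 of the 44 members (59.1%), against 3.92% of all 33469 promoter windows. Within the members 32 matches were counted, some of them overlapping, and 23 of them began within 100 bases before the start site. The matches below are shown because they stand in members that the results turn on, and they put the shared letters beside the range of responses described afterwards. Capitals mark the match, with 10 bases on each side, in the direction of the gene. Where the match lies on the opposite strand the capitals read as TTTC, 2 bases and TTTC.
Rsad2 (chr6:48788248-48788277, minus strand): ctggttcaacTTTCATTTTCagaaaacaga
Ifit3 (chr1:241527272-241527301, plus strand): tttaagtctgTTTCAGTTTCtagtttccac
Gbp2 (chr2:234005686-234005715, plus strand): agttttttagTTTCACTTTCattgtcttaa
Gbp4 (chr2:233978466-233978495, plus strand): agaagcagggTTTCGATTTCggttcccttt
Gbp5 (chr2:233910933-233910962, plus strand): acttgtgtagTTTCAATTTCagtttagagg
Bst2 (chr16:18255073-18255102, minus strand): ccaggaaaatGAAACTGAAAggtggcagca
Apol9a (chr7:111028260-111028289, minus strand): agagtttcacTTTCCATTTCctggatctgg
Ifi44 (chr2:243303795-243303824, minus strand): aagtttctctTTTCGTTTTCtgcaggcttg
Parp14 (chr11:78408048-78408077, plus strand): tccaggaaatGAAAGTGAAAgaagtaagtt
Isg20 (chr1:142239957-142239986, plus strand): taatgaaccaGAAACTGAAActaaaacggc
Ifitm3 (chr1:205541783-205541812, minus strand): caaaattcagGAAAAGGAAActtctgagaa
Ifitm2 (chr1:205482362-205482391, minus strand): ccaccaacagGAAAAGGAAActgctagaga
Nmi (chr3:56848624-56848653, minus strand): tgaaataaacGAAAGTGAAAgaacggcctg
Epsti1 (chr15:59693356-59693385, plus strand): tggttaaagaGAAATCGAAActcagctgtt
Rsad2 and Ifit3, the first of these, had the largest differences of all members in the double knockdown, whereas Epsti1, with a match 35 bases before its start, was not called in any comparison. Members with a match had a median log2 difference of 2.72 in the double knockdown (range 0.30 to 7.19), and the 18 members without one had a median of 1.98 (range 0.50 to 5.22). Uba7 and Cmpk2 were the highest of those without a match, leaving out Plac8, whose fold has no fixed value. The gamma-activated site, searched as TTC, 3 bases of any kind and GAA, was found in 7 members (15.9%) and in 8.87% of all windows. Those 7 were Bst2, Ifitm3, Igtp, Irgm, Parp14, Samhd1 and Shisa5. A match describes these letters in this window and does not show that a factor binds there.

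Each library was examined before the members. Recovered totals ran from 33.9 to 41.1 M counts per library. Yap1 was 3042, 3776 and 2984 under negative siRNA, 532, 576 and 625 under Yap siRNA, 3169, 3151 and 3184 under Wwtr1 siRNA and 713, 739 and 1474 under both. Wwtr1 was 2364, 2565 and 2280.0 under negative siRNA, 2134, 2499.5 and 2374 under Yap siRNA, 524, 550.0 and 637 under Wwtr1 siRNA and 818, 731 and 1056 under both. Double knockdown replicate 3 kept the most of both targeted genes in its group. Every double knockdown library held more Yap1 than any Yap siRNA library and more Wwtr1 than any Wwtr1 siRNA library. Wwtr1 was called higher in the double knockdown than with Wwtr1 siRNA (log2 difference 0.59, limma adjusted p 0.00804). Yap1 was not called against Yap siRNA (log2 difference 0.67, limma adjusted p 0.0623). All 9 fibroblast markers had rows, and their summed normalized count was at least 3026800 in every library, with Yap siRNA libraries (from 3932800) above all controls (up to 3738200). The 9 macrophage markers summed to between 20907 and 29916 normalized counts with negative siRNA, between 17732 and 26298 with Yap siRNA and between 10878 and 18525 with Wwtr1 siRNA. In the double knockdown they summed to 6531, 13076 and 44400 in replicates 1, 2 and 3, so replicate 3 stood apart. Markers of T, NK and B cells had no row. The 8 endothelial markers summed to between 913 and 1158 with negative siRNA, between 1193 and 1359 with Yap siRNA, between 1217 and 1405.5 with Wwtr1 siRNA and between 1467 and 1866 in the double knockdown, so every knockdown library was above every control. The 7 cardiomyocyte markers with a row summed to between 30734 and 50688 with negative siRNA, between 39938 and 61742 with Yap siRNA, between 31669 and 55097 with Wwtr1 siRNA and between 52344 and 67368 in the double knockdown, where all libraries were above the controls. In the double knockdown 4 endothelial and 3 cardiomyocyte markers were called higher and none lower, 4 fibroblast markers were higher and 2 lower, and 1 macrophage marker was lower. Macrophage sums of both single knockdowns and of double knockdown replicates 1 and 2 did not exceed the control range. The part of endothelial cells and cardiomyocytes in any difference was not tested. In bulk RNA, fewer cells of a type and less RNA per cell cannot be told apart.

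Most members were higher in each of the 3 groups with siRNA against Yap, Wwtr1 or both. A member was called when its difference in log2(normalized count + 1) passed a limma adjusted p of 0.05 over all 11871 genes tested. With Yap siRNA 40 of 51 members were higher, where 3.02% of all genes tested were called higher. With Wwtr1 siRNA 42 were higher, where 5.0% of all genes were. In the double knockdown 49 were higher, where 17.1% of all genes were, or 48 of 50 without Plac8, which entered the test through that group alone. No member was called lower in any of these comparisons by limma, edgeR or DESeq2. The 3 comparisons share the negative siRNA libraries.

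The median log2 difference of the members from negative siRNA was 1.47 under Yap siRNA, 1.57 under Wwtr1 siRNA and 2.28 under both, while the median of all genes tested stayed within 0.01 of 0. A log2 difference over 2 was reached by 20, 21 and 31 members, against 1.0%, 1.27% and 3.07% of all genes, and one over 4 by 7, 7 and 13 members. In these member counts Plac8, which had no count in any control library, was set at the limit that 3 counts per control library allow. Every library of the group lay above every negative siRNA library in 48 members under Yap siRNA, 46 under Wwtr1 siRNA and 49 under both (48 without Plac8), against 13.5%, 16.6% and 23.1% of all genes.

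**Figure D1:**
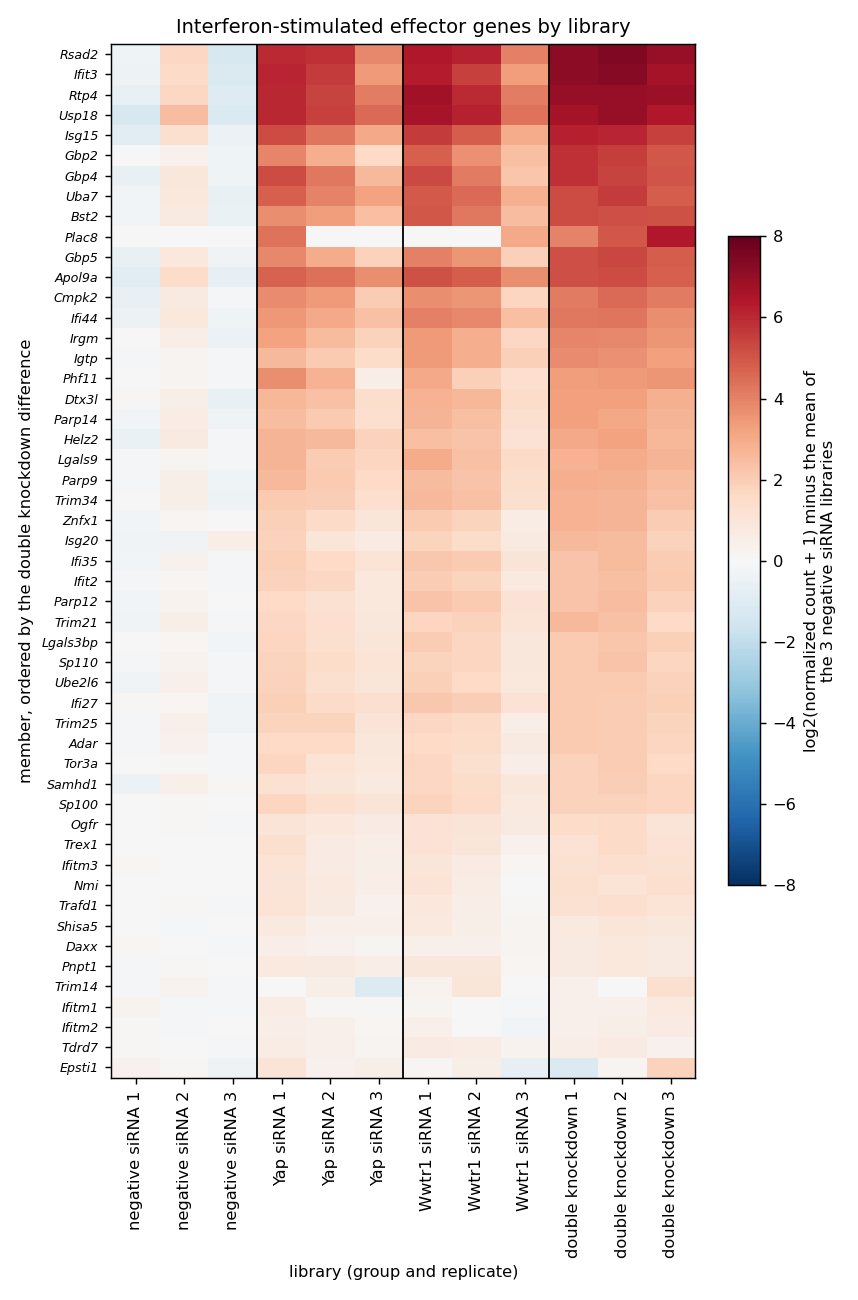
Color gives log2(normalized count + 1) of each of the 51 members in each of the 12 libraries, minus the mean of the 3 negative siRNA libraries, with members ordered by their double knockdown difference. Replicate 3 is the palest column of the Yap and of the Wwtr1 siRNA group, and Plac8 was at 0 in all negative siRNA libraries.

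The size of the rise differed between replicates in the same way in most members. Yap siRNA replicate 1 was the highest of its group in 48 of 51 members and replicate 3 the lowest in 48. Wwtr1 siRNA replicate 1 was the highest in 45 members and replicate 3 the lowest in 50. In the double knockdown, replicate 3 was the lowest in 38. The median over members of the log2 difference from the negative siRNA mean was 1.89, 1.59 and 1.00 in Yap siRNA replicates 1, 2 and 3. In the same order it was 2.10, 1.85 and 1.11 for Wwtr1 siRNA libraries and 2.56, 2.52 and 2.02 for double knockdown libraries. Negative siRNA replicate 2 was the highest control library in 40 members, with a median of 0.29 against -0.16 and -0.14 in replicates 1 and 3.

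How many members passed the test with Yap siRNA depended on single libraries. The count of 40 fell to 13 when Yap siRNA replicate 1 was left out, to 18 when replicate 2 was, and to 18 when negative siRNA replicate 3 was, while the share of all genes called higher fell from 3.02% to 0.632%, 0.977% and 0.842%. The 13 members called in every fit that left out 1 library were Ifi27, Ifi44, Rsad2, Rtp4, Parp9, Lgals9, Sp110, Uba7, Usp18, Helz2, Igtp, Irgm and Apol9a. With Wwtr1 siRNA 33 of 42 members were called in every such fit, and in the double knockdown 47 of 49, the exceptions being Ifitm1 and Plac8. Without double knockdown replicate 3 neither passed and the count was 47. Ifitm1 was also lost without negative siRNA replicate 2 or replicate 3. In fits that left out 1 library, the share of all genes called higher was 2.52% to 6.32% with Wwtr1 siRNA and 12.5% to 16.9% in the double knockdown. The replicate number was also fitted as a block, over all 12 libraries and, chosen after seeing the data, over the 9 negative, Yap and Wwtr1 siRNA libraries. The 12-library block gave 45 members higher under Yap siRNA (4.52% of all genes) and 45 under Wwtr1 siRNA (6.18%). The 9-library block gave 48 (8.92% of all genes) and 46 (11.0%), and no call of the fit without a block was lost in either.

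Conjugation of Isg15, a ubiquitin-like modifier attached to newly made proteins, uses the activating enzyme Uba7, the carrier Ube2l6 and the removing protease Usp18. All 4 rose in all 3 comparisons with negative siRNA. Usp18 was 16.4, 236 and 18.6 under negative siRNA, 2865, 1928 and 998 under Yap siRNA, 4178, 3033 and 869 under Wwtr1 siRNA and 4447, 5300.5 and 3606 under both. Its lowest double knockdown library was over 10 times its highest control library. Isg15 was 55.4, 252 and 74.4 under negative siRNA, 3759, 2004 and 840.0 under Yap siRNA, 4981, 2997 and 815 under Wwtr1 siRNA and 7643, 7108 and 4471 under both, with a log2 difference of 5.93 (limma adjusted p 0.000107, SE 0.71) in the double knockdown. The log2 difference of Usp18 was 5.35 (limma adjusted p 0.00767, SE 0.86) under Yap siRNA, 5.69 (limma adjusted p 0.0023, SE 0.86) under Wwtr1 siRNA and 6.67 (limma adjusted p 0.000172, SE 0.86) under both. Ube2l6, which had the highest control count of the group, was 714, 1176 and 789 under negative siRNA, 3075, 2108 and 1712 under Yap siRNA, 3241, 2683 and 1533 under Wwtr1 siRNA and 3756, 3666 and 3071 under both. No library of Ube2l6 in the knockdown groups overlapped the controls, but its log2 difference of 2.00 (limma adjusted p 0.000278, SE 0.28) in the double knockdown was the smallest of the 4.

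Enzymes that act on nucleotides and nucleic acids spanned a wide range of responses. Of 7 members, 5 rose under Yap siRNA, and all 7 did in both other comparisons with the controls. Rsad2, which makes a chain-terminating nucleotide, was 16.4, 70.0 and 8.27 under negative siRNA, 1389, 1308 and 316 under Yap siRNA, 1907, 1578 and 374 under Wwtr1 siRNA and 3269, 3879.9 and 2839 under both. Its log2 difference of 7.19 (limma adjusted p 6.38e-05, SE 0.78) in the double knockdown was the largest of any member, and it was 5.21 with Yap siRNA and 5.53 with Wwtr1 siRNA. Both single knockdowns had their lowest Rsad2 library in replicate 3. Cmpk2, a mitochondrial nucleotide kinase, had a log2 difference of 4.28 in the double knockdown, and the exonuclease Isg20 one of 2.31. Adar, which edits adenosines in double-stranded RNA, had 1.95, and Samhd1, which degrades deoxynucleotides, 1.84. Pnpt1, a mitochondrial RNA-degrading enzyme and the most abundant of the 7 by control count, was 1228, 1495 and 1406 under negative siRNA, 2346, 2286 and 2022 under Yap siRNA, 2531, 2594 and 1551 under Wwtr1 siRNA and 2214, 2504 and 2228 under both. Its 3 knockdown groups overlapped one another, with log2 differences of 0.69, 0.66 and 0.75, and all lay above the controls. Isg20 and the DNA exonuclease Trex1 were not called with Yap siRNA (limma adjusted p 0.103 and 0.059), and Trex1 was called with the 12-library block (limma adjusted p 0.0332), Isg20 with the 9-library block (limma adjusted p 0.0385) but not with the 12-library block (limma adjusted p 0.0758).

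The RNA-binding proteins Ifit2 and Ifit3 both rose in all 3 comparisons. Ifit3 was 42.1, 163 and 24.8 under negative siRNA, 3946, 2685 and 592 under Yap siRNA, 4465, 2542 and 577 under Wwtr1 siRNA and 8242, 8733 and 5827 under both. Every knockdown library was above every control library, and its log2 difference was 5.02 (limma adjusted p 0.00929, SE 0.85), 5.05 (limma adjusted p 0.00395, SE 0.85) and 7.04 (limma adjusted p 0.000112, SE 0.85) with Yap siRNA, Wwtr1 siRNA and both. Ifit2 had a control count well over 1000 and was 2115, 2526 and 2148 under negative siRNA, 7962, 6987 and 3982 under Yap siRNA, 9246, 7825 and 3841 under Wwtr1 siRNA and 11128, 12044 and 9592 under both. Its log2 difference in the double knockdown was 2.27 (limma adjusted p 0.000196, SE 0.30). Reads shared between near-identical family members could be divided differently among the Ifit, Ifitm, Gbp, Apol, Trim34, Phf11 and immunity-related GTPase genes, so values of these genes are uncertain one by one. No source used here states if reads were counted by strand.

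Among the small interferon-induced proteins, Ifi27, a mitochondrial membrane protein, had the highest control count (counts are not corrected for gene length) and was 5175, 5437 and 4037 under negative siRNA, 17962, 13962 and 12333 under Yap siRNA, 21921, 18737 and 10883 under Wwtr1 siRNA and 20234, 19515 and 18248 under both. The double knockdown libraries of Ifi27 were above all Yap siRNA libraries and within the range of the Wwtr1 siRNA libraries, with log2 differences of 1.59, 1.77 and 2.00. Ifi44 rose most of this group and was 242, 607 and 259 under negative siRNA, 3745, 2718 and 1724 under Yap siRNA, 5452, 4747 and 1760.0 under Wwtr1 siRNA and 6281, 6499.6 and 4513 under both. Its log2 difference in the double knockdown was 4.08 (limma adjusted p 6.4e-05, SE 0.44). Ifi35 rose in all 3 comparisons, with log2 differences of 1.53, 1.76 and 2.28. Nmi, the binding partner of Ifi35, was 273, 271 and 275 under negative siRNA, 547, 469 and 399 under Yap siRNA, 595, 413 and 280.5 under Wwtr1 siRNA and 653, 589 and 704 under both. All double knockdown libraries of Nmi were above the controls, with a log2 difference of 1.24 (limma adjusted p 0.00126, SE 0.22). Its single knockdowns were not called (limma adjusted p 0.0676 under Yap siRNA and 0.127 under Wwtr1 siRNA), and with the 12-library block the first was (limma adjusted p 0.0432) and the other was not (limma adjusted p 0.0897), whereas the 9-library block called both (limma adjusted p 0.0126 and 0.0354).

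The group of membrane restriction factors, in which Rtp4 was placed with Bst2 and the Ifitm proteins, had large and small responses. Rtp4 was 18.5, 91.0 and 13.4 under negative siRNA, 1904, 1247 and 499 under Yap siRNA, 3131, 1861 and 494 under Wwtr1 siRNA and 3649, 3688 and 3324 under both, with log2 differences of 5.16, 5.59 and 6.91 (limma adjusted p 6.07e-05, SE 0.75) with Yap siRNA, Wwtr1 siRNA and both. Bst2, or tetherin, which holds budding virus at the cell surface, was 164, 309 and 132 under negative siRNA, 2464, 1903 and 1019 under Yap siRNA, 5985, 3506 and 1059 under Wwtr1 siRNA and 7141, 6719.5 and 6397 under both. Its double knockdown libraries lay above all others and close together, and the log2 difference from negative siRNA was 5.15 (limma adjusted p 4.45e-05, SE 0.53). The Ifitm proteins, which block fusion of virus with cell membranes, were already abundant in control cells. Ifitm3, the member with the highest control count of all 51, was 20114, 18599 and 18459 under negative siRNA, 40789, 30166 and 25859 under Yap siRNA, 37015, 30296 and 21560 under Wwtr1 siRNA and 43553, 48617 and 44696 under both. It rose with Yap siRNA, 0.73 (limma adjusted p 0.0447, SE 0.18), and in the double knockdown, 1.26 (limma adjusted p 0.000379, SE 0.18), and with Wwtr1 siRNA it was not called, but was with either block, by DESeq2 and without Yap siRNA replicate 1 or Wwtr1 siRNA replicate 3 (log2 difference 0.60, limma adjusted p 0.0648 without a block and 0.0252 with the 12-library block).

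Ifitm1 was 11871, 8661 and 8512 under negative siRNA, 14241, 10336 and 10341 under Yap siRNA, 10976, 9515 and 9067 under Wwtr1 siRNA and 12689, 12898 and 16493 under both. Control replicate 1 of Ifitm1 lay among the knockdown libraries, and it was called in the double knockdown, 0.54 (limma adjusted p 0.0226, SE 0.16). Ifitm2 was 9095, 8152 and 8375 under negative siRNA, 12089, 11473 and 9651 under Yap siRNA, 11153, 8549 and 7467 under Wwtr1 siRNA and 11233, 11742 and 13346 under both. Its log2 difference in the double knockdown was 0.50 (limma adjusted p 0.0135, SE 0.13), the smallest of the group. With Yap siRNA, Ifitm1 and Ifitm2 had log2 differences of 0.27 and 0.37 (limma adjusted p 0.398 and 0.148, 0.299 and 0.111 with the 12-library block, and 0.0131 and 0.0113 with the 9-library block, the one fit of all that called them). With Wwtr1 siRNA neither was called, and the log2 differences were 0.04 and 0.07.

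The ADP-ribosyltransferases Parp9, Parp12 and Parp14 and Dtx3l, the ubiquitin ligase that pairs with Parp9, rose in all 3 comparisons. Parp14, the highest of these in control cells, was 943, 1671 and 877 under negative siRNA, 6133, 4782 and 2818 under Yap siRNA, 7496, 5836 and 2726 under Wwtr1 siRNA and 10623, 9535 and 7365 under both. Knockdown and control libraries of Parp14 did not overlap, and its log2 difference in the double knockdown was 3.02 (limma adjusted p 0.000134, SE 0.38). Dtx3l, with the largest rise of the 4, was 276, 358 and 166 under negative siRNA, 1609.6, 1306 and 686 under Yap siRNA, 1721, 1632 and 705 under Wwtr1 siRNA and 2470.5, 2501 and 1851 under both. It reached 3.14 (limma adjusted p 0.000131, SE 0.39) in the double knockdown. Parp12 was 803, 1154 and 902 under negative siRNA, 2874, 2205 and 1686 under Yap siRNA, 4499, 4016 and 2067 under Wwtr1 siRNA and 4583, 5213 and 3324 under both. It had log2 differences of 1.22 (limma adjusted p 0.0354, SE 0.28) under Yap siRNA, 1.83 (limma adjusted p 0.00259, SE 0.28) under Wwtr1 siRNA and 2.19 (limma adjusted p 0.000175, SE 0.28) under both.

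Of the Trim proteins, Trim21, Trim25 and Trim34 rose in all 3 comparisons and Trim14 in none. Trim25, the ligase that acts on the RNA sensor Rig-I, was 663, 981 and 619 under negative siRNA, 2512, 2564 and 1543 under Yap siRNA, 2306, 2118 and 1052 under Wwtr1 siRNA and 3183, 3009 and 2523 under both. The controls lay below all other libraries of Trim25, and its log2 difference in the double knockdown was 1.97 (limma adjusted p 0.000388, SE 0.29). Trim34 was 241, 338 and 187 under negative siRNA, 1085, 968 and 629 under Yap siRNA, 1487, 1245 and 607 under Wwtr1 siRNA and 1687, 1662 and 1239 under both. Its log2 difference in the double knockdown was 2.61 (limma adjusted p 0.000132, SE 0.32). Trim14, an adaptor on mitochondria, was low throughout, at 22.6, 31.0 and 23.8 under negative siRNA, 25.6, 36.4 and 11.5 under Yap siRNA, 31.3, 51.0 and 26.4 under Wwtr1 siRNA and 33.8, 25.9 and 62.3 under both. Its groups overlapped, with log2 differences of -0.19, 0.43 and 0.56 (limma adjusted p 0.876, 0.636 and 0.407).

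Guanylate-binding proteins, which coat and disrupt the vacuoles of intracellular pathogens, and the immunity-related GTPases Igtp and Irgm rose in all 3 comparisons in 5 of 5 members. Gbp2 was 234, 301 and 185 under negative siRNA, 3588, 1753 and 698 under Yap siRNA, 6370.1, 3042 and 1257 under Wwtr1 siRNA and 13396, 10910 and 7246 under both. Replicate 1 was the highest library of Gbp2 in each knockdown group and replicate 3 the lowest, and every double knockdown library was above all others. The log2 difference of Gbp2 was 2.79 (limma adjusted p 0.0242, SE 0.59) under Yap siRNA, 3.62 (limma adjusted p 0.00336, SE 0.59) under Wwtr1 siRNA and 5.43 (limma adjusted p 6.4e-05, SE 0.59) under both. Gbp5 was 115, 309 and 144 under negative siRNA, 2451, 1384 and 609.6 under Yap siRNA, 2857, 2042 and 659 under Wwtr1 siRNA and 6062, 7172 and 5038 under both. Here too the double knockdown libraries were above all others. Gbp4, the lowest of the group in control cells, had log2 differences of 4.02, 3.88 and 5.41. Igtp, the highest in control cells, was 319, 399 and 327 under negative siRNA, 2127, 1512 and 976 under Yap siRNA, 3749, 2568 and 1309.8 under Wwtr1 siRNA and 4829.6, 4433 and 3384 under both. Its log2 difference was 2.08 (limma adjusted p 0.00857, SE 0.34), 2.74 (limma adjusted p 0.000955, SE 0.34) and 3.59 (limma adjusted p 2.98e-05, SE 0.34) with Yap siRNA, Wwtr1 siRNA and both, and Irgm had 2.53, 2.66 and 3.76.

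**Figure D2:**
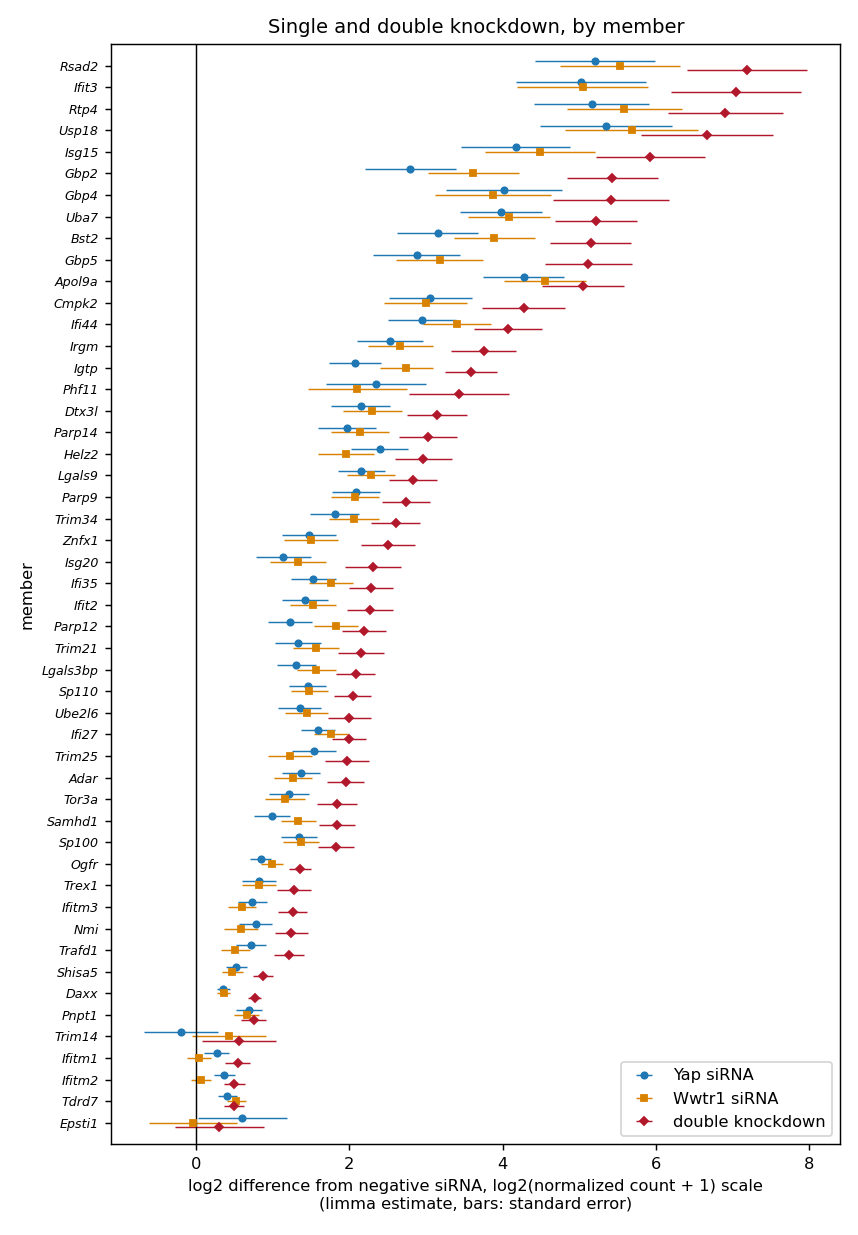
Points give the limma estimate of the log2 difference from negative siRNA for 50 members (Plac8 left out) with Yap siRNA, Wwtr1 siRNA and both, and bars the standard error. Both single knockdowns lie close together in most members, and the double knockdown estimate is the furthest to the right in all but Tdrd7 and Epsti1.

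Lgals3bp, Lgals9 and Apol9a rose in all 3 comparisons. Lgals3bp, a secreted glycoprotein that binds galectins, was 12659, 14186 and 11021 under negative siRNA, 41012, 30283 and 24112 under Yap siRNA, 52337, 41956 and 23491 under Wwtr1 siRNA and 53166, 58947 and 47996 under both. Its control libraries were well below all others, and its log2 difference of 2.08 (limma adjusted p 0.000126, SE 0.26) in the double knockdown was the smallest of these 3. Apol9a, a member of the apolipoprotein L family, was 85.2, 418 and 96.1 under negative siRNA, 3980.3, 3184 and 2009 under Yap siRNA, 5207, 4453 and 1958 under Wwtr1 siRNA and 5413, 5571 and 4225 under both. The single knockdowns of Apol9a came close to the double knockdown, with log2 differences of 4.28 (limma adjusted p 0.00345, SE 0.53), 4.55 (limma adjusted p 0.000719, SE 0.53) and 5.05 (limma adjusted p 4.98e-05, SE 0.53). Lgals9, a galectin, had 2.16, 2.29 and 2.83.

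Nuclear body and chromatin proteins rose in 3 of 4 members with each single knockdown and in all 4 with both. Sp110 was 1555, 2033 and 1473 under negative siRNA, 5778, 4637 and 3589.5 under Yap siRNA, 5771, 5527 and 3152 under Wwtr1 siRNA and 7234, 8179 and 5568 under both. No control library of Sp110 reached a knockdown library, and the log2 difference was 1.46, 1.48 and 2.05 (limma adjusted p 9.47e-05, SE 0.24) with Yap siRNA, Wwtr1 siRNA and both. Phf11 was 17.4, 21.0 and 16.5 under negative siRNA, 253, 129.6 and 27.2 under Yap siRNA, 159.6, 71.4 and 47.8 under Wwtr1 siRNA and 194, 206 and 220.2 under both. It ranged widely within the single knockdowns, which were not called (limma adjusted p 0.0637 under Yap siRNA and 0.0661 under Wwtr1 siRNA, or 0.032 and 0.0362 in the fit with the 12-library block), and its log2 difference in the double knockdown was 3.43 (limma adjusted p 0.00192, SE 0.65). Daxx, a histone chaperone, was 1622, 1562 and 1471 under negative siRNA, 2201, 1989.8 and 1789 under Yap siRNA, 2061, 2082 and 1832 under Wwtr1 siRNA and 2578, 2738 and 2579.9 under both. Its groups formed 3 separate levels, with controls lowest, both single knockdowns in the middle and the double knockdown highest. The log2 difference of Daxx was 0.36 (limma adjusted p 0.0396, SE 0.09), 0.36 (limma adjusted p 0.0235, SE 0.09) and 0.76 (limma adjusted p 7.77e-05, SE 0.09). Sp100 had log2 differences of 1.34, 1.37 and 1.83.

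Helz2 and Znfx1, large helicase-related proteins, rose in all 3 comparisons. Helz2 was 455, 1068 and 588 under negative siRNA, 4398, 4037 and 2367 under Yap siRNA, 3568, 3194 and 1472 under Wwtr1 siRNA and 5300.0, 6197 and 4178 under both. All its knockdown libraries were above the controls, and its log2 difference in the double knockdown was 2.97 (limma adjusted p 0.000139, SE 0.37). Tdrd7, a tudor-domain protein, was 1548, 1505 and 1363 under negative siRNA, 2251, 1937 and 1697 under Yap siRNA, 2303, 2256 and 1814 under Wwtr1 siRNA and 2106, 2297 and 1841 under both. The 3 knockdown groups of Tdrd7 overlapped, and its log2 differences were 0.41 (limma adjusted p 0.0927, SE 0.13), 0.52 (limma adjusted p 0.0233, SE 0.13) and 0.50 (limma adjusted p 0.0101, SE 0.13). With the 12-library block Tdrd7 was also called with Yap siRNA (limma adjusted p 0.0124).

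The remaining members were grouped under no common role, and 3 of 6 rose with each single knockdown and 5 with both, Plac8 among them. Shisa5, a protein of the endoplasmic reticulum, was 5530.0, 4919.9 and 5490.3 under negative siRNA, 9179.9, 6973 and 6963 under Yap siRNA, 8928, 7212 and 6229 under Wwtr1 siRNA and 9123, 10182 and 9878 under both. Its knockdown libraries were all above the controls, and its log2 difference in the double knockdown was 0.87 (limma adjusted p 0.000484, SE 0.13). Ogfr, the opioid growth factor receptor, had log2 differences of 0.84, 0.99 and 1.36, and Tor3a had 1.21, 1.16 and 1.84. Trafd1, a feedback inhibitor of innate immune signaling, was called in the double knockdown, 1.22 (limma adjusted p 0.000663, SE 0.19), and in the fit with the 12-library block also with Yap siRNA and Wwtr1 siRNA (limma adjusted p 0.015 and 0.0404).

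Epsti1 was 214, 186 and 127 under negative siRNA, 352, 215 and 236 under Yap siRNA, 181, 242 and 107 under Wwtr1 siRNA and 77.6, 201 and 612 under both. Its double knockdown libraries ran from below all controls to above every other library, and it was not called (limma adjusted p 0.619, 0.978 and 0.723). Plac8 was 0, 0 and 0 under negative siRNA, 19.5, 0 and 0 under Yap siRNA, 0, 0 and 7.11 under Wwtr1 siRNA and 14.9, 30.9 and 84.2 under both. It was called in the double knockdown (limma adjusted p 0.0172), the group through which it passed the filter on low values. It was not called with a pseudocount of 0.1 (limma adjusted p 0.0983), by DESeq2 (adjusted p 0.0518) or without double knockdown replicate 3 (limma adjusted p 0.0719). No fold is given because it was listed at 0 in every control library. A value of 0 can be a failed estimate. In the double knockdown, 5 members (Epsti1, Plac8, Ifitm1, Ifitm2 and Phf11) and the summed macrophage markers were lowest in replicate 1 and highest in replicate 3, where the macrophage markers reached 44400 normalized counts. Without that library neither Ifitm1 nor Plac8 was called. The share of all genes with that order of libraries was not counted, and Phf11 differed little between them. The part of macrophages in the values of these 5 members was not tested.

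**Figure D3:**
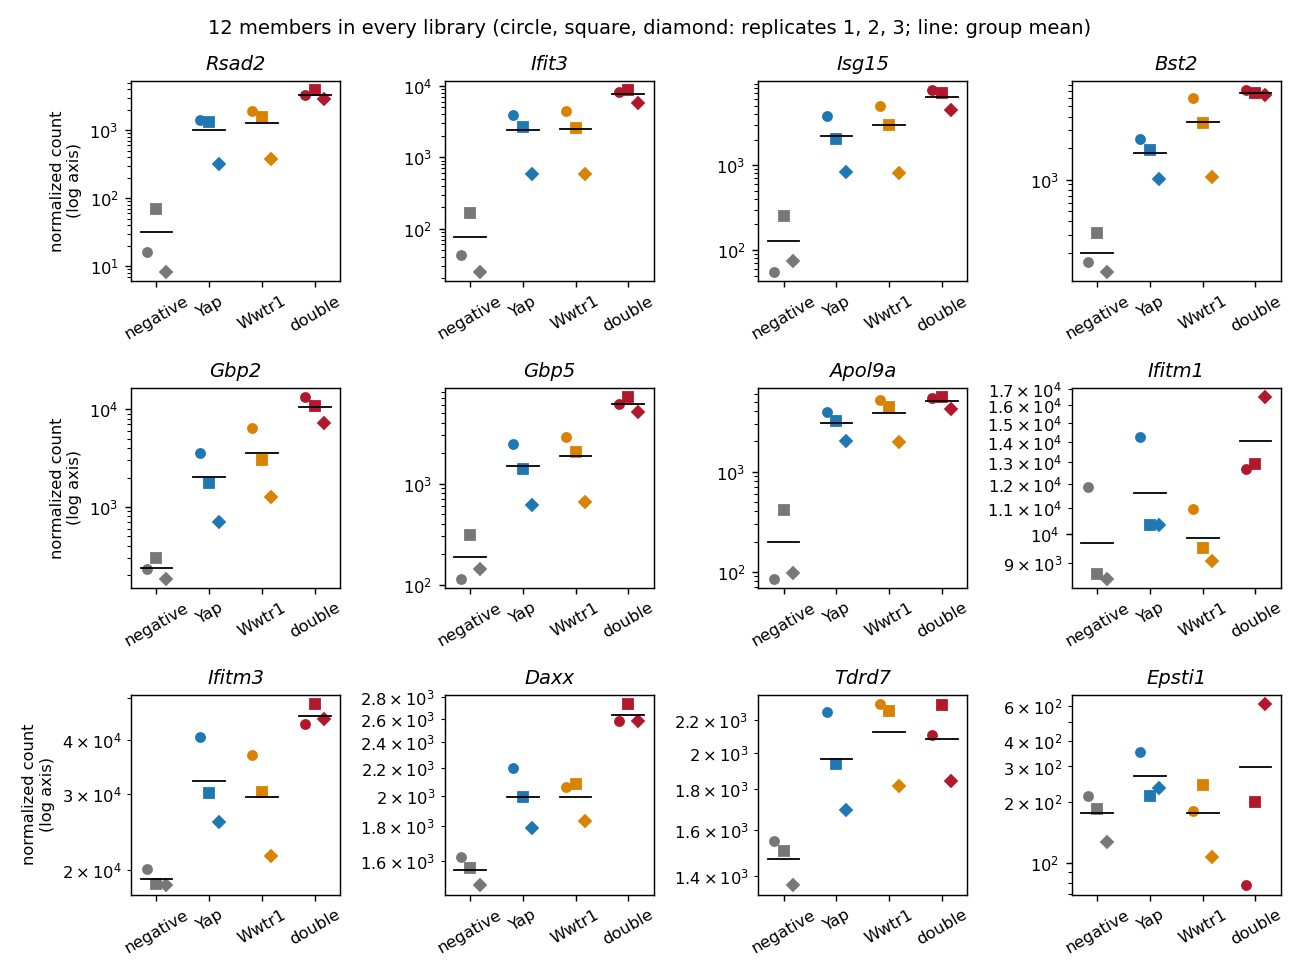
Each panel shows 1 member in all 12 libraries as normalized counts on a log axis, with a symbol per replicate and a line at each group mean. Scales differ between panels. Gbp2, Gbp5, Bst2 and Daxx have every double knockdown library above every single knockdown library, whereas Tdrd7 and Epsti1 do not.

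The double knockdown was then compared with each single knockdown. Each targeted gene was less depleted in the double knockdown than in its own single knockdown, and the part of this in the comparisons below was not tested. Members were higher in the double knockdown in 8 of 51 (15.7%) against Yap siRNA, where 6.83% of all genes tested were called higher. Against Wwtr1 siRNA 6 of 51 were (11.8%), near the 9.75% of all genes. None was lower. By direction alone 50 of 51 members were higher against each single knockdown, with median log2 differences of 0.78 against Yap siRNA and 0.67 against Wwtr1 siRNA and medians of 0.01 over all genes. The median against Wwtr1 siRNA was 0.37 without Wwtr1 siRNA replicate 3. Every double knockdown library lay above every Yap siRNA library in 30 members (16.2% of all genes) and above every Wwtr1 siRNA library in 24 (18.9% of all genes).

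Against Yap siRNA the members called were Gbp2 (2.64 (limma adjusted p 0.013, SE 0.59)), Gbp5 (2.24 (limma adjusted p 0.0238, SE 0.57)), Bst2 (2.00 (limma adjusted p 0.0282, SE 0.53)) and Igtp (1.51 (limma adjusted p 0.0135, SE 0.34)) with the largest differences. Parp12 (0.96 (limma adjusted p 0.0433, SE 0.28)), Samhd1 (0.84 (limma adjusted p 0.0338, SE 0.23)), Ogfr (0.52 (limma adjusted p 0.0329, SE 0.14)) and Daxx (0.41 (limma adjusted p 0.01, SE 0.09)) followed. Samhd1 was 105, 189.9 and 156 under negative siRNA, 336, 292 and 252 under Yap siRNA, 456, 407 and 272 under Wwtr1 siRNA and 518, 571 and 484 under both. Its double knockdown libraries were above the others. Ogfr was 2698, 2845 and 2514 under negative siRNA, 5366, 4869.5 and 4245 under Yap siRNA, 6108, 5569.8 and 4476 under Wwtr1 siRNA and 7561, 7734 and 5577 under both. Its double knockdown libraries were above all Yap siRNA libraries. The count of 8 was 1 without Yap siRNA replicate 3, and 3 without Yap siRNA replicate 2, double knockdown replicate 1 or double knockdown replicate 2. The share of all genes called higher was 3.2%, 5.36%, 4.41% and 4.56% in these 4 fits, against 6.83% with all libraries. Leaving out Wwtr1 siRNA replicate 3 gave 16 (6.76% of all genes), and leaving out Yap siRNA replicate 1 gave 15 (5.94%). Only Daxx was called in all 12 fits that left out 1 library, while Gbp2 and Igtp were lost without Yap siRNA replicate 3.

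Against Wwtr1 siRNA the members called were Gbp5 (1.94 (limma adjusted p 0.0328, SE 0.57)), Trafd1 (0.70 (limma adjusted p 0.0251, SE 0.19)), Ifitm3 (0.66 (limma adjusted p 0.0273, SE 0.18)), Ifitm1 (0.50 (limma adjusted p 0.0456, SE 0.16)), Ifitm2 (0.44 (limma adjusted p 0.0395, SE 0.13)) and Daxx (0.40 (limma adjusted p 0.00734, SE 0.09)). Trafd1 was 2092, 2328 and 2016 under negative siRNA, 4628, 3474 and 2715 under Yap siRNA, 3891, 3149 and 2329 under Wwtr1 siRNA and 4979.7, 5408 and 4584 under both. All of its double knockdown libraries were above all Wwtr1 siRNA libraries, as they were for each Ifitm member. The count of 6 was 1 without Wwtr1 siRNA replicate 2, Wwtr1 siRNA replicate 3, double knockdown replicate 1 or double knockdown replicate 2, and 16 without Wwtr1 siRNA replicate 1. In the same order the share of all genes called higher was 6.09%, 5.42%, 7.53%, 7.32% and 8.84%, against 9.75% with all libraries. Daxx was again the one member called in all 12 fits that left out 1 library. Gbp5 and Daxx were the members called against both single knockdowns.

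Yap and Wwtr1 siRNA were then compared with each other. No member was called higher or lower between Yap and Wwtr1 siRNA by limma, where 4.57% of all genes tested were called higher with Yap siRNA and 4.22% lower. At an unadjusted p under 0.05 there was 1 member, Ifitm2 (24.4% of all genes), and edgeR and DESeq2 called none. The log2 difference of Yap minus Wwtr1 siRNA ranged from -0.82 for Gbp2 to 0.64 for Epsti1, with a median of -0.11, and 34 of 51 members were lower with Yap siRNA. This direction depended on single libraries, since the median was 0.15 without Yap siRNA replicate 3, 0.14 without Wwtr1 siRNA replicate 1 and -0.48 without Wwtr1 siRNA replicate 3. The 12-library block called no member either (5.53% of all genes higher and 5.02% lower). With the 9-library block, Ifitm1 and Ifitm2 were higher with Yap siRNA (log2 differences 0.23 and 0.30, limma adjusted p 0.0208 and 0.0219) and Parp12 was lower (log2 difference -0.60, limma adjusted p 0.0465). In that last fit 11.6% of all genes were called higher and 11.0% lower.

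Whether the 2 single differences add up on the log2 scale was asked with the interaction, the double knockdown difference minus the sum of the single differences. It was negative in 46 of 51 members, with a median of -0.89 (0.01 over all genes), or -0.59 when Wwtr1 siRNA replicate 1 was left out. Apol9a passed the test, at -3.78 (limma adjusted p 0.042, SE 0.75). It was the 1 member called lower, where 0.607% of all genes tested were called lower. None was called higher, where 0.421% of all genes were. At an unadjusted p under 0.05 there were 26 members, against 14.0% of all genes. Leaving out 1 library at a time, Apol9a stayed called without negative siRNA replicate 2 and without Wwtr1 siRNA replicate 3, and it was not called in the other 10 fits, with limma adjusted p up to 0.109.

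On the scale of normalized counts the rise in the double knockdown was set against the sum of the single rises, each taken over the negative siRNA mean. Their ratio had a median of 0.99 over 48 members (all but Trim14, Epsti1 and Plac8), with 23 members over 1 and 25 under 1. That balance depended on single libraries, with 11 members over 1 without Wwtr1 siRNA replicate 3, 12 without Yap siRNA replicate 3 and 34 without Wwtr1 siRNA replicate 1. It was 2.02 for Gbp2, 2.00 for Gbp5 and 1.57 for Ifit3. For Ifitm1 it was 2.04, but leaving out negative siRNA replicate 1 gave 1.26 and leaving out replicate 1 of Yap siRNA gave 5.25. The ratio was lowest for Tdrd7 (0.53), Pnpt1 (0.56), Ifi27 (0.65) and Apol9a (0.75). The ratio of mean counts, double knockdown over Yap siRNA, had a median of 1.66 and exceeded 2 in 18 members. Over Wwtr1 siRNA it had a median of 1.54 and exceeded 2 in 9, with Plac8 among both counts. These ratios carry no test.

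**Figure D4:**
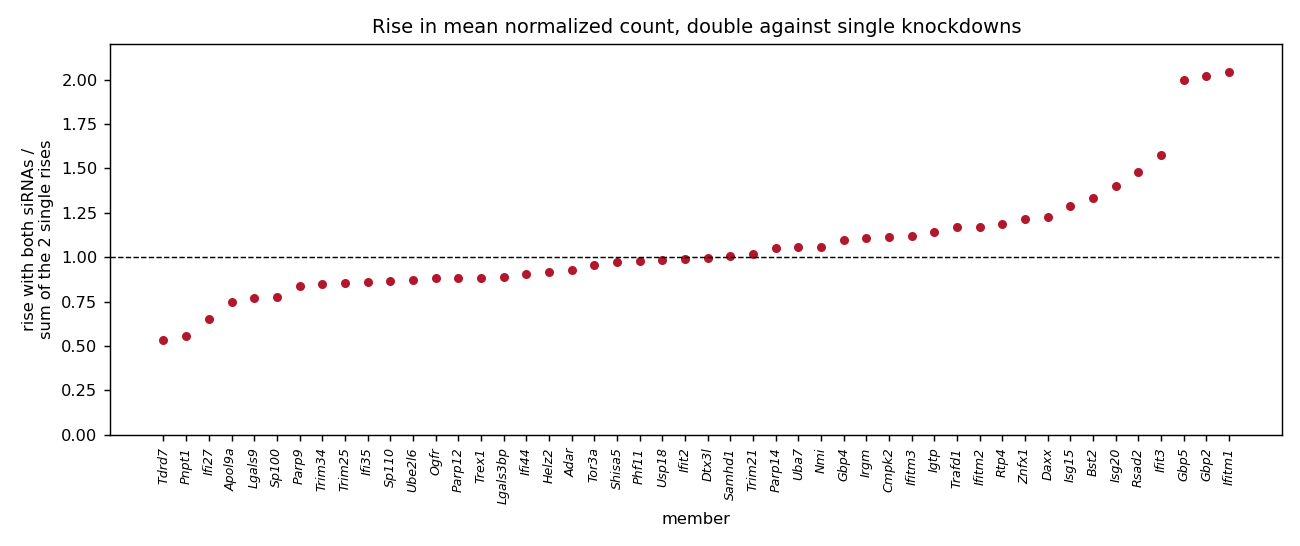
Points give, for 48 members, the rise in mean normalized count in the double knockdown divided by the sum of the rises with Yap and Wwtr1 siRNA, all over the mean of 3 negative siRNA libraries, and the dashed line marks equality. Members lie on both sides of the line, from 0.53 for Tdrd7 to 2.04 for Ifitm1.

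Members were also ordered by their control count, which is not corrected for gene length. In the 9 members with a mean under 100 normalized counts with negative siRNA, the median log2 difference in the double knockdown was 5.41. It was 2.61 in the 27 members from 100 to 1000 and 1.26 in the 15 over 1000. The same 3 bins had medians of 4.02, 1.81 and 0.73 with Yap siRNA and 4.08, 1.96 and 0.66 with Wwtr1 siRNA. The median interaction was -2.84, -0.98 and -0.47. Exceptions stood in each bin. Trim14 was under 100 and did not pass the test, Epsti1 lay between 100 and 1000 and did not pass, and Parp14 had the largest difference over 1000 (3.02). The negative siRNA mean enters both the control count and the difference, so this ordering is a description. By family, the median log2 difference in the double knockdown was highest for Isg15 conjugation (5.58) and the GTPases (5.12), and lowest for membrane restriction factors (1.26).

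**Figure D5:**
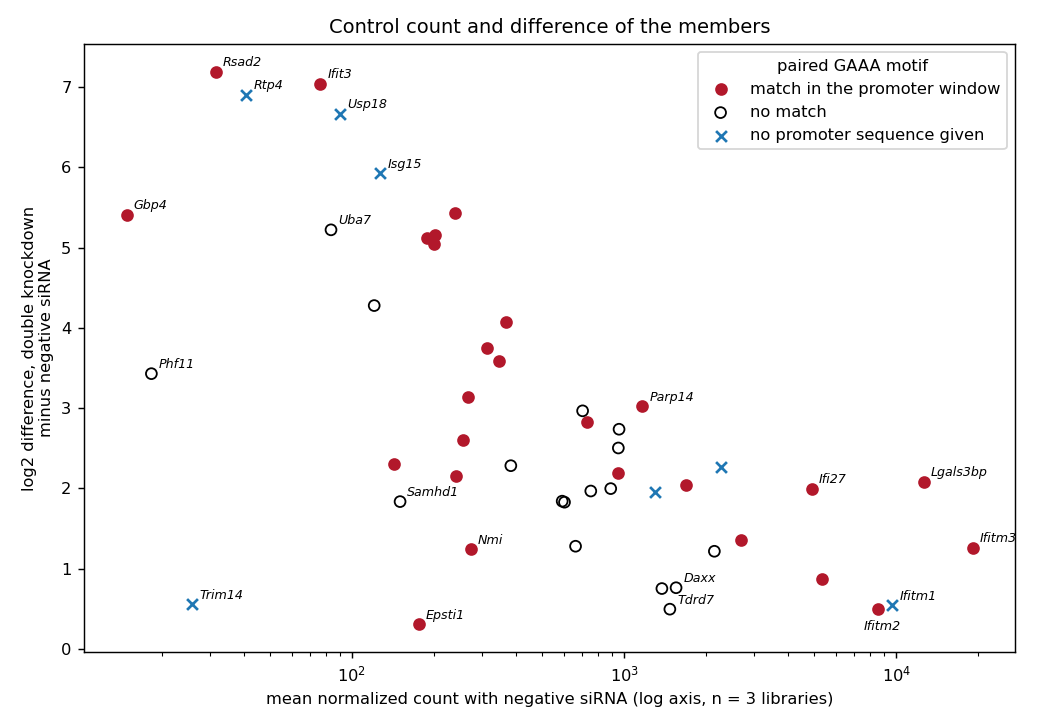
Each point is 1 of 50 members (Plac8 left out), with its mean normalized count with negative siRNA on a log axis and its log2 difference in the double knockdown, and the symbol shows whether the paired GAAA motif was found in its promoter window. High differences lie at low control counts, with Trim14, Phf11 and Epsti1 lower than other members of like count, and matches occur over the whole range.

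Other genes of the interferon pathway were read from a separate list of 19 symbols, of which 16 had a row. Ifnb1 and Ifnar2 had none, and Rigi is another symbol of Ddx58, which had one. With Yap siRNA 11 rose (3.02% of all genes), with Wwtr1 siRNA 10 rose and 1 fell (5.0% and 3.96% of all genes), and in the double knockdown 13 rose (17.1% of all genes). Of the 16, Oas2, Mx1 and Eif2ak2 are themselves antiviral effectors and rose in all 3 comparisons, and of the other 13 genes 8, 7 and 10 rose. Irf7, the transcription factor that amplifies interferon production, was 197, 853 and 334 under negative siRNA, 10676, 7019 and 4047 under Yap siRNA, 13974, 8359.8 and 2988 under Wwtr1 siRNA and 18272, 19059 and 17991 under both. All its knockdown libraries exceeded the controls, with a log2 difference of 5.59 (limma adjusted p 4.45e-05, SE 0.57) in the double knockdown. The cytosolic RNA sensors Ddx58, Ifih1 and Dhx58 rose in all 3 comparisons, by 3.42, 2.98 and 4.75 on the log2 scale in the double knockdown. The receptor chain Ifnar1 rose in the double knockdown alone, 0.29 (limma adjusted p 0.00933, SE 0.07), and the kinases Jak1 and Tyk2 were not called (0.13 and 0.06 on the log2 scale). Mavs, the adaptor of the RNA sensors, fell with Wwtr1 siRNA, -0.38 (limma adjusted p 0.0132, SE 0.08).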

How the data were processed

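RNA sequencing values of 12 libraries (4 groups of 3, grouped by sample titles) were analysed. Per the labels and the study's methods, the authors trimmed reads with Trim Galore 0.6.5, aligned them to rn6 with HISAT2, estimated abundance with StringTie and normalized with DESeq2. The deposited normalized counts (signal) were read counts divided by 1 size factor per library. All 147252 values were whole multiples of a library step (tolerance 0.01 of a step), giving 33.9 to 41.1 M counts per library, which covers counting error only. What 1 unit stands for (read, mate or coverage) is not known. The authors' tables of log2 fold changes and p-values against negative siRNA were not used.

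Log2(normalized count + 1) was tested with limma 3.58.1 in R 4.3.3 (lmFit, contrasts, eBayes with trend, 12 libraries in 1 fit, no covariate) on genes whose mean reached 10 normalized counts, and p-values are two-sided and Benjamini-Hochberg adjusted over 11871 genes. Differences on this scale understate the change of low genes. The steps were checked on simulated counts. Members, role groups, the pathway list, cell markers and motifs were chosen with earlier results of these data known. For 1 gene of the pathway list the values are not reported here, although it is counted. Values in every library are given for the member of highest control count and those of largest and smallest double knockdown difference in each role group, and for members not called, or called between knockdowns. Same-numbered negative, Yap and Wwtr1 siRNA libraries deviated together (9 correlations over all genes tested, 0.104 to 0.276; the study names separate litters), so the number was taken to pair them. With the double knockdown they were -0.127 to 0.180, and that group shares only a number. Other settings tried were no filter, a minimum mean of 100, pseudocounts of 0.1 and 10, scaling by TMM or upper quartile, no trend, the compared groups alone, a replicate block, count models on the recovered counts (DESeq2 1.42.0, edgeR 4.0.16) and each library left out.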

Additional observations from a re-analysis of the deposited data

Results flagged for a closer look

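The interaction of Apol9a on the log2 scale was -3.78 (limma adjusted p 0.042), a test of whether the difference made by 1 siRNA target depends on the other. Apol9a was higher in 3 of 3 libraries of every knockdown group than in any control library, and its double knockdown difference was less than the sum of its single differences.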

How the results depend on the processing

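All counts of members called higher against negative siRNA in the double knockdown lay between 47 and 49 (12.5% to 18.7% of all genes). Leaving out 1 library gave 13 to 43 members higher with Yap siRNA (0.632% to 3.87% of all genes). For the double knockdown against Yap siRNA (8 in the report), the count was 3 with no trend, 29 with the replicate block and 13 with DESeq2 (5.66%, 9.08% and 9.43% of all genes), and 1 to 16 without 1 library. Against Wwtr1 siRNA (6 in the report) it was 3, 27 and 10 (8.72%, 11.8% and 12.3% of all genes), and 1 to 16. The double knockdown shares only a number with the other groups. For Yap against Wwtr1 siRNA, the replicate block gave 0 in each direction, the block without double knockdown libraries 2 higher and 1 lower, and leaving out 1 library gave 0 to 1 in each direction. For the interaction, members called lower numbered 0 with no trend, 9 with the replicate block and 7 with DESeq2 (0.261%, 1.13% and 2.5% of all genes), and 0 to 6 without 1 library, with 6 when Wwtr1 siRNA replicate 3 was left out. The median difference of the members between Yap and Wwtr1 siRNA was -0.48 to 0.15 without 1 library. Against negative siRNA, the members that turned in sign were not called: Epsti1 with Wwtr1 siRNA was 0.0028 by edgeR, 0.0044 by DESeq2 and -0.31 to 0.28 without 1 library. Without 1 library, Epsti1 in the double knockdown was -0.46 to 1.03, Trim14 with Yap siRNA -0.5395 to 0.25, and Ifitm1 and Ifitm2 with Wwtr1 siRNA -0.0462 to 0.1936 and -0.0947 to 0.1947, all on the log2 scale. The cause of these changes was not tested.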
